A study of Oryza sativa with 18 samples.

Results

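Roots of rice (Oryza sativa cv. Nipponbare) that carried nodule-like structures (NLS) 7 days after a soak in 2,4-D were compared with mock roots of the same day, over every transcript of the deposited table. The comparison rests on 6 of the 18 libraries of the series, the 3 labelled as 2,4-D at 7 days post treatment (dpt) and with NLS, and the 3 labelled as mock at 7 dpt and without NLS. Seedlings stood for 1 h in a solution with 50 µM 2,4-D, or without it for mock, and were then kept on low-nitrogen medium, so that low nitrogen is shared by both groups. No mutant or transgene is involved, and the tissue is root with no cell type selected, so that any cell of the root can contribute. Of the 66860 transcripts of the table, 41811 had at least 1 count in the 6 libraries and 13770 passed the filter for testing, which asked for at least 10 CPM, a count scaled to the depth of its library, in 2 or more of the 6. A further 8938 had at least 1 CPM in 2 or more libraries and were tested in a separate fit, given further on. The question was which transcripts differed between roots with NLS and mock roots, whether or not the study's supplementary tables list them.

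2,4-D is a synthetic auxin that plant cells break down slowly. Auxin opens its own response by removing Aux/IAA repressors from auxin response factors, and cells answer with transporters that move auxin, GH3 enzymes that conjugate it and LOB-domain, AP2 and GRAS factors that found new organs. In roots, auxin and cytokinin act against each other in the pericycle and stele, where lateral organs begin, while the mature root lays down lignified xylem and the suberized, lignified barriers of the endodermis. NLS are outgrowths of the root that auxin can bring about without bacteria.

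The study checked 14 of these genes by RT-PCR, and the primer pairs of 4 of them are shown because these 4 transcripts rose and their rise recurs below: an auxin efflux carrier (LOC_Os01g51780.1, chromosome 1), a GRAS factor (LOC_Os06g40780.1, chromosome 6), a cysteine-rich receptor-like kinase (LOC_Os07g35280.1, chromosome 7) and a calcium-dependent protein kinase (LOC_Os08g42750.1, chromosome 8). Each is written 5′ to 3′ in lower case and was read from the study's primer list, with no match to a genome made here.
Auxin efflux carrier, forward: aggcagctctacctcaagga
Auxin efflux carrier, reverse: aaagtagtaagccagcgcca
GRAS factor, forward: caggtggaggtgatgatagattg
GRAS factor, reverse: ttgatgatggcctccagataac
Receptor-like kinase, forward: gggagccttgacatctttcttt
Receptor-like kinase, reverse: caacaatcacgccactcttatc
Calcium-dependent kinase, forward: ggaggatgcttgatcctaacc
Calcium-dependent kinase, reverse: gagtaagagtatccttgcagagc

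The 6 libraries held 11195978 to 16410418 counts, and log2 CPM correlated at 0.870 to 0.960 between libraries of one treatment and at 0.630 to 0.813 between treatments across the tested transcripts, which are not independent replicates. The deposited counts were scaled with TMM factors and tested by quasi-likelihood in edgeR, with p-values adjusted after Benjamini and Hochberg over all 13770. Calls required an adjusted p under 0.05 together with a log2 fold change of 1 or more in size. By that rule 693 (5.03%) were higher and 835 (6.06%) lower with 2,4-D, 11.1% in all. The labels number the libraries as replicates and the study describes biological replicates, but nothing ties a number to a plant, a plate or a day. The counts of calls fell to 156 and 207 without 2,4-D replicate 1, to 281 and 344 without 2,4-D replicate 2, to 343 and 434 without mock replicate 1, to 596 and 520 on omitting mock replicate 2, stood at 524 and 743 without mock replicate 3, and reached 791 and 1326 without 2,4-D replicate 3. A core of 144 higher and 177 lower transcripts kept its call whichever of the 6 libraries was left out. Unless a sentence says otherwise, each transcript given below with a call at 10 CPM belongs to that core. Under the same condition it was also called with limma-voom, DESeq2, other scaling factors, other filters and all 18 libraries in 1 fit. A replicate block, given further below, is not covered by this statement. The transcripts called higher held 1.37 to 1.75% of all normalized counts in mock libraries and 5.21 to 6.83% in 2,4-D libraries, while those called lower held 9.90 to 11.2% and 2.71 to 3.35%. These shares describe transcripts chosen by the same difference and are no test. An exact two-sided permutation test of 1 transcript cannot go below p = 0.1 with 3 libraries against 3, so that single transcripts rest on the fit across all of them.

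For the gene groups below, members were found by words in the descriptions of the study's supplementary tables. Those tables were drawn by the study from these libraries, so that no count within a list is independent evidence of a direction, and a share above the 11.1% of all tested transcripts is built into the choice. The median log2 fold change over all tested transcripts was -0.02 (0.08 when scaled on library totals alone). Many descriptions name the best match in another species. The 3 values of a group are always given in the order of replicates 1, 2 and 3, as CPM scaled with TMM factors. As bulk samples, they cannot tell fewer cells of a type from less RNA per cell. Most transcripts given were chosen by their call in these same libraries. Groups that do not overlap are therefore largely built into the choice and are no separate support. The share of such transcripts among all tested was not taken.

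**Figure D1:**
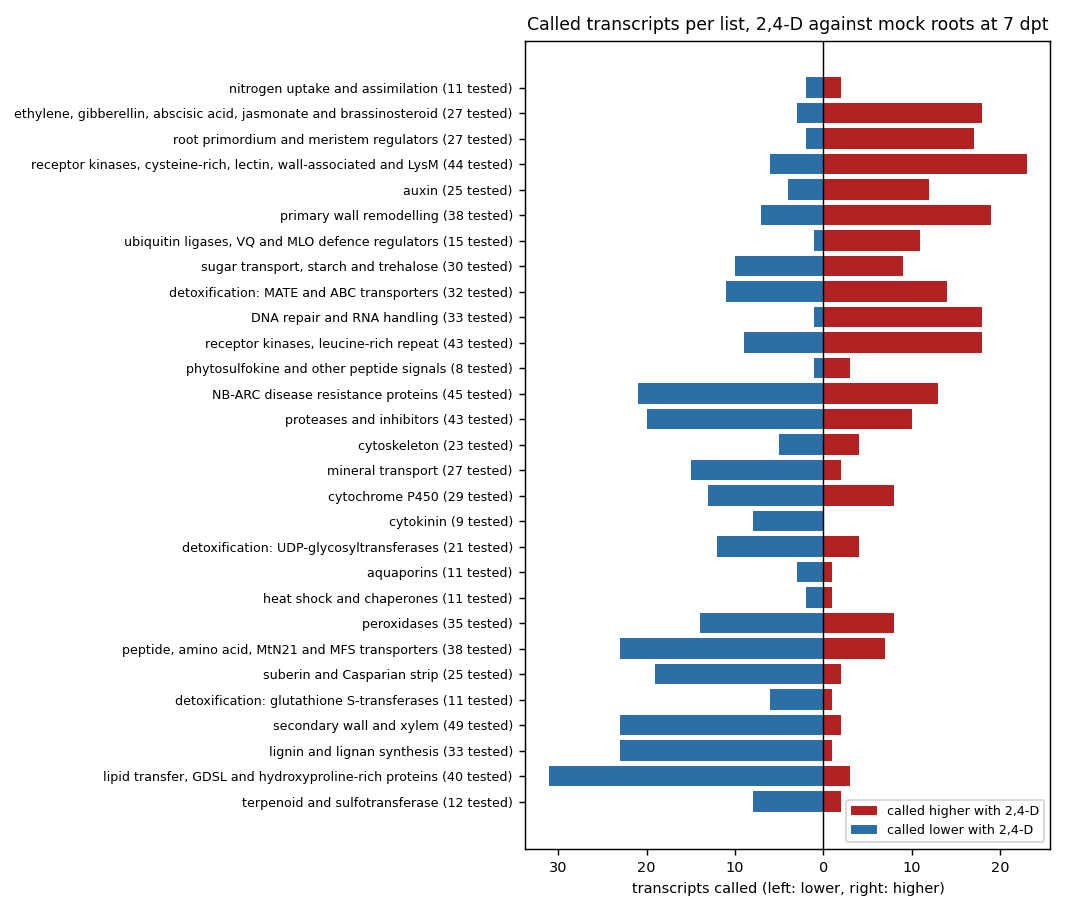
Number of transcripts called higher (right, red) and lower (left, blue) with 2,4-D at 7 dpt in each of the 29 lists, ordered by the median log2 fold change of their tested members. The auxin, root primordium, receptor kinase and other hormone lists lie mostly to the right, with 17 higher and 2 lower in the root primordium list, and the cytokinin, secondary wall, lignin, suberin and lipid transfer lists mostly to the left, with 2 higher and 23 lower in the secondary wall list.

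Of 25 tested auxin transcripts, 12 rose, 4 fell and 9 were not called (median log2 fold change 1.37). The auxin efflux carrier LOC_Os01g51780.1, of the family that moves auxin out of cells, stood at 1.62, 1.94 and 1.53 CPM in mock and 39.9, 30.4 and 20.8 CPM in 2,4-D libraries (log2 fold change 4.15 ± 0.32 SE, edgeR adjusted p = 0.00423). The groups lay far apart, with mock values close together and 2,4-D replicate 3 the lowest of the treated libraries. A second efflux carrier of the same description (LOC_Os09g32770.1) went the other way, from 51.4, 38.7 and 47.9 CPM in mock to 8.70, 3.93 and 7.29 CPM in 2,4-D libraries (log2 fold change -2.79 ± 0.33 SE, edgeR adjusted p = 0.00869). P-glycoprotein 11 (LOC_Os01g50100.1), an ABC transporter of the class that includes auxin carriers, was at 15.5, 18.9 and 9.84 CPM in mock and 339, 185 and 216 CPM in 2,4-D libraries (log2 fold change 4.06 ± 0.37 SE, edgeR adjusted p = 0.00608). Again no library of one group overlapped the other. A GH3 enzyme gene (LOC_Os01g55940.1), of the family that joins auxin to amino acids, had 66.95, 43.9 and 68.02 CPM and 791, 544 and 442 CPM in mock and 2,4-D libraries (log2 fold change 3.31 ± 0.31 SE, edgeR adjusted p = 0.0061). IAA carboxylmethyltransferase 1 (LOC_Os04g56950.1), which in Arabidopsis makes the methyl ester of auxin, had 15.1, 11.6 and 6.59 CPM and 161, 117 and 96.9 CPM (log2 fold change 3.49 ± 0.37 SE, edgeR adjusted p = 0.008). Both were higher in every 2,4-D library than in any mock library. The list gave 9 and 2, 9 and 1, and 11 and 3 without mock replicates 1, 2 and 3 in turn, and 7 and 1, 7 and 1, and 14 and 6 without 2,4-D replicates 1, 2 and 3.

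Regulators of root primordia and meristems were mostly higher. Of 27 tested members 17 rose and 2 fell (median log2 fold change 1.69). An AP2-type factor (LOC_Os11g19060.1), of the family that holds the PLETHORA regulators of root meristems, stood at 6.11, 5.04 and 2.39 CPM in mock and 47.5, 57.6 and 29.04 CPM in 2,4-D libraries (log2 fold change 3.295 ± 0.44 SE, edgeR adjusted p = 0.01). The GRAS factor LOC_Os06g40780.1, of the family of SCARECROW, went from 2.39, 1.36 and 1.82 to 32.5, 21.0 and 12.4 CPM (log2 fold change 3.56 ± 0.45 SE, edgeR adjusted p = 0.00957). In both genes the lowest 2,4-D library was replicate 3 and still lay above every mock library. The GRAS factor was not called with limma-voom. LOB-domain protein 16 (LOC_Os02g57490.1), which in Arabidopsis acts below auxin in lateral root initiation, was at 4.64, 3.62 and 1.15 and 43.97, 26.7 and 19.1 CPM (log2 fold change 3.24 ± 0.58 SE, edgeR adjusted p = 0.0206), but dropped out on leaving out mock replicate 2 (adjusted p = 0.0572), 2,4-D replicate 1 (0.0701) or 2,4-D replicate 2 (0.0548) and with limma-voom. Its groups did not overlap either. Members that fell were a START-domain homeobox gene (LOC_Os01g10320.1, -1.67 on the log2 scale, adjusted p = 0.0189 by edgeR, not called when mock replicate 1 or 2,4-D replicate 2 was left out) and a GRAS factor (LOC_Os07g40020.1, -1.59, adjusted p = 0.0151, not called without 2,4-D replicate 1 or 2). Leaving out libraries gave 12 and 1, 10 and 2, and 15 and 2 without mock replicates 1, 2 and 3 in turn, and 6 and 1, 10 and 0, and 16 and 4 without 2,4-D replicates 1, 2 and 3.

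Of 9 tested cytokinin genes, 8 were called lower and 0 higher (median log2 fold change -1.92). Histidine kinase 3 (LOC_Os12g26940.1), a cytokinin receptor in Arabidopsis, stood at 177, 144 and 156 CPM in mock and 49.3, 36.1 and 36.1 CPM in 2,4-D libraries (log2 fold change -1.97 ± 0.18 SE, edgeR adjusted p = 0.00608). The spread within each group was small beside the gap. Purine permease 4 (LOC_Os01g48800.1), of a family that carries purines and, for some members, cytokinin bases, was at 38.2, 19.4 and 44.4 and 2.45, 1.84 and 0.945 CPM (log2 fold change -4.28 ± 0.50 SE, edgeR adjusted p = 0.00869), and was not called with limma-voom. Response regulator 3 (LOC_Os02g35180.1), of a class that cytokinin induces in Arabidopsis, was at 74.6, 72.8 and 156 and 14.6, 12.3 and 15.9 CPM (log2 fold change -2.82 ± 0.36 SE, edgeR adjusted p = 0.00947). Mock replicate 3 stood above the other mock libraries in that gene, the 2,4-D libraries lay close together, and leaving out 2,4-D replicate 1 ended the call (adjusted p = 0.0554). The list count moved with single libraries, to 0 and 3, 0 and 6, and 0 and 6 without mock replicates 1, 2 and 3 in turn, and 0 and 2, 0 and 3, and 1 and 8 without 2,4-D replicates 1, 2 and 3.

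Of 27 tested genes for ethylene, gibberellin, abscisic acid, jasmonate and brassinosteroid, 18 rose and 3 fell (median log2 fold change 1.85). Gibberellin 2-oxidase 6 (LOC_Os05g06670.1), of the enzymes that inactivate gibberellins, went from 3.51, 7.04 and 5.06 CPM in mock to 83.8, 55.3 and 29.9 CPM in 2,4-D libraries (log2 fold change 3.43 ± 0.47 SE, edgeR adjusted p = 0.011). Jasmonate-zim-domain protein 1 (LOC_Os09g26780.1), a repressor of jasmonate responses, went from 31.97, 30.03 and 21.3 to 167, 146 and 168 CPM (log2 fold change 2.53 ± 0.20 SE, edgeR adjusted p = 0.00423). The groups did not overlap in either, and the 2,4-D libraries of the latter agreed closely. A cytochrome P450 of family 94C (LOC_Os11g05380.1), which in Arabidopsis oxidizes the active jasmonate conjugate, was at 2.88, 9.95 and 7.16 and 87.1, 50.02 and 77.5 CPM (log2 fold change 3.42 ± 0.50 SE, edgeR adjusted p = 0.0128), and was no longer called when 2,4-D replicate 1 was left out (adjusted p = 0.0554) and with all 18 libraries in 1 fit. The ethylene-forming enzyme LOC_Os09g27820.1, which makes ethylene and is among the RT-PCR genes, was at 1.12, 2.07 and 7.07 and 42.9, 40.2 and 46.3 CPM (log2 fold change 3.68 ± 0.67 SE, edgeR adjusted p = 0.0221). Its mock libraries spread more in proportion than its 2,4-D libraries, and it was not called without mock replicate 2 (adjusted p = 0.0627), 2,4-D replicate 1 (0.0825) or 2,4-D replicate 2 (0.0673). Counts of this list were 10 and 0, 17 and 1, and 10 and 3 without mock replicates 1, 2 and 3 in turn, and 5 and 0, 6 and 1, and 18 and 4 without 2,4-D replicates 1, 2 and 3. Among 8 peptide signal genes 3 rose and 1 fell. The gene described as a phytosulfokine 3 precursor (LOC_Os12g05260.1; the RT-PCR list calls it a phytosulfokine receptor) had 49.95, 56.6 and 57.6 and 324, 724 and 191 CPM (log2 fold change 2.92 ± 0.50 SE, edgeR adjusted p = 0.0192), with every 2,4-D library above every mock library. That call was lost without any of the 3 mock libraries or without 2,4-D replicate 1 (adjusted p = 0.0535 to 0.0714), and the list gave 2 and 0, 1 and 0, and 2 and 1 without mock replicates 1, 2 and 3 in turn, and 0 and 0, 2 and 0, and 4 and 2 without 2,4-D replicates 1, 2 and 3.

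**Figure D2:**
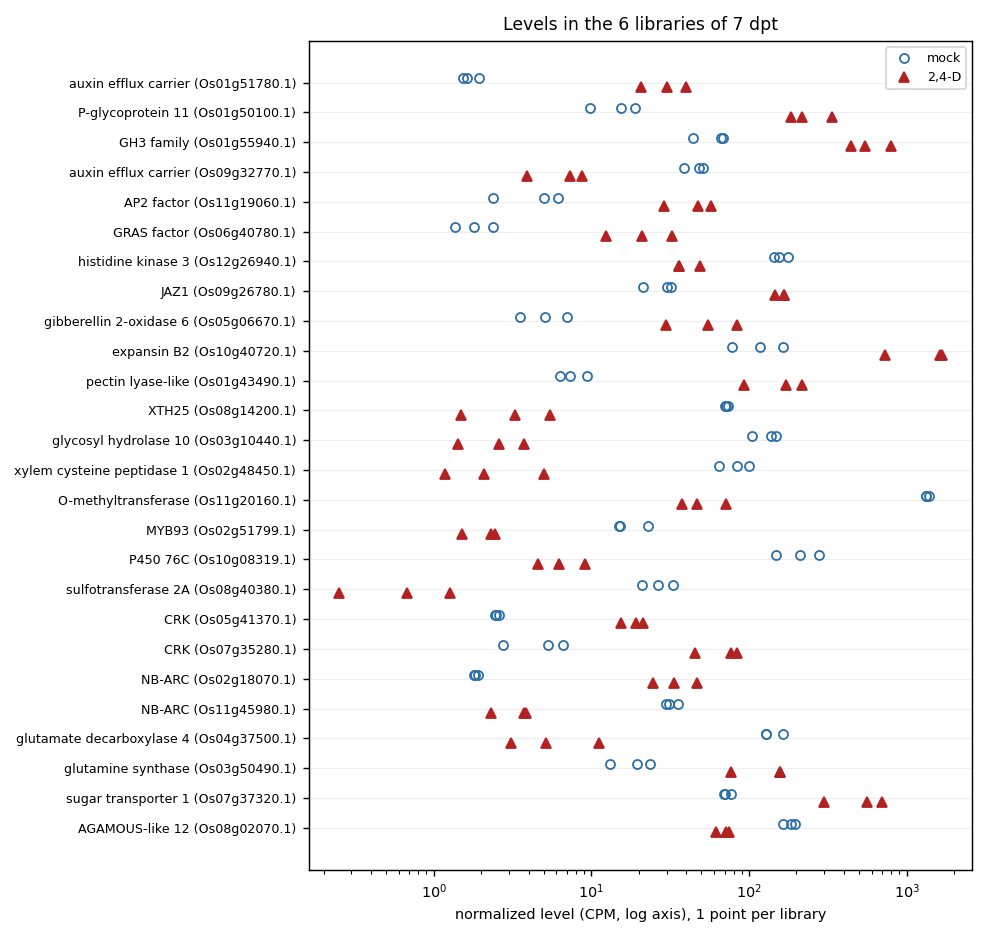
Normalized level (CPM, log axis) of 26 transcripts in each library of 7 dpt, with open circles for the 3 mock and triangles for the 3 2,4-D libraries. In every row the groups stand apart, with the auxin efflux carrier Os01g51780.1 between 1.53 and 1.94 CPM in mock and between 20.8 and 39.9 CPM in 2,4-D libraries. The rows were chosen from called transcripts, which favours that gap.

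Enzymes and proteins that loosen the primary wall rose in 19 and fell in 7 of 38 cases (median log2 fold change 1.35). An expansin B2 gene (LOC_Os10g40720.1), of the proteins that let walls yield, went from 165, 118 and 78.3 CPM in mock to 1621, 1683 and 728 CPM in 2,4-D libraries (log2 fold change 3.48 ± 0.45 SE, edgeR adjusted p = 0.00982). A pectin lyase-like gene (LOC_Os01g43490.1), of a family that cuts pectin, went from 9.34, 7.36 and 6.305 to 173, 218 and 93.1 CPM (log2 fold change 4.39 ± 0.38 SE, edgeR adjusted p = 0.00568). In both, 2,4-D replicate 3 was well below the other treated libraries and well above all mock libraries. The opposite held for xyloglucan endotransglucosylase/hydrolase 25 (LOC_Os08g14200.1), which cuts and rejoins xyloglucan, at 71.3, 70.01 and 73.2 CPM in mock and 5.46, 3.26 and 1.49 CPM in 2,4-D libraries (log2 fold change -4.397 ± 0.47 SE, edgeR adjusted p = 0.00813). Its mock libraries were nearly equal and 2,4-D replicate 3 was here the lowest. Glycosyl hydrolase 9B13 (LOC_Os02g03120.1), of the cellulase family, had 14.1, 13.1 and 5.83 and 334, 180.2 and 75.03 CPM (log2 fold change 4.15 ± 0.66 SE, edgeR adjusted p = 0.0154) and was not called without mock replicate 1 (adjusted p = 0.0519). The list gave 9 and 4, 14 and 5, and 16 and 5 without mock replicates 1, 2 and 3 in turn, and 7 and 3, 11 and 3, and 18 and 11 without 2,4-D replicates 1, 2 and 3. Among all transcripts, the 8 largest gains in mean CPM also held a plantacyanin (LOC_Os02g49850.1), a small copper protein of the cell surface, at 46.6, 45.5 and 19.3 CPM in mock and 950.5, 812 and 316 CPM in 2,4-D libraries (log2 fold change 4.22 ± 0.57 SE, edgeR adjusted p = 0.0107).

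Of 49 tested secondary wall and xylem genes, 23 fell, 2 rose and 24 were not called (median log2 fold change -2.46). A glycosyl hydrolase of family 10 (LOC_Os03g10440.1), the family of xylanases, had 149, 138 and 104 CPM in mock and 2.61, 1.42 and 3.71 CPM in 2,4-D libraries (log2 fold change -5.64 ± 0.40 SE, edgeR adjusted p = 0.00415). Xylem cysteine peptidase 1 (LOC_Os02g48450.1), which in Arabidopsis digests the content of dying xylem vessels, had 99.97, 84.03 and 64.9 and 1.19, 2.09 and 4.998 CPM (log2 fold change -4.89 ± 0.57 SE, edgeR adjusted p = 0.00869). Neither gene had a 2,4-D library near the mock range, although replicate 3 was the highest of the treated libraries in both. A COBRA-like gene (LOC_Os07g41310.1), of a family that orients cellulose, was one of those that rose, from 4.99, 5.55 and 3.34 to 35.5, 37.9 and 17.4 CPM (log2 fold change 2.701 ± 0.38 SE, edgeR adjusted p = 0.012), and its call ended when 2,4-D replicate 1 was omitted (adjusted p = 0.0520) and with limma-voom. The count of falls moved widely with single libraries, giving 1 and 8, 2 and 9, and 2 and 15 without mock replicates 1, 2 and 3 in turn, and 0 and 5, 2 and 10, and 2 and 47 without 2,4-D replicates 1, 2 and 3. With limma-voom the counts were 1 and 22 and with DESeq2 2 and 43.

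Lignin and lignan enzymes fell in 23 and rose in 1 of 33 tested cases (median log2 fold change -2.59). An O-methyltransferase (LOC_Os11g20160.1), of the enzymes that methylate phenolic compounds, stood at 1394, 1334 and 1336 CPM in mock and 71.8, 37.6 and 46.7 CPM in 2,4-D libraries (log2 fold change -4.702 ± 0.30 SE, edgeR adjusted p = 0.00396). Its mock libraries differed little, and it was among the 8 largest losses in mean CPM over all transcripts. Phenylalanine ammonia-lyase 1 (LOC_Os02g41630.2), the entry enzyme of phenylpropanoid synthesis and the largest of these losses, had 6066, 5851 and 6379.6 and 1713, 2622 and 2905 CPM (log2 fold change -1.34 ± 0.26 SE, edgeR adjusted p = 0.0254). The groups did not overlap, but the call ended when mock 1, mock 2, 2,4-D 1 or 2,4-D 2 was left out (adjusted p = 0.0635 to 0.0907). Laccase 7 (LOC_Os12g15920.1), of the oxidases that polymerize lignin, had 139.5, 89.8 and 63.8 and 1.03, 0.335 and 4.19 CPM (log2 fold change -5.68 ± 0.89 SE, edgeR adjusted p = 0.0151), and its call ended when 2,4-D replicate 1 was omitted (adjusted p = 0.0708) and with limma-voom. The list gave 0 and 14, 0 and 14, and 0 and 23 without mock replicates 1, 2 and 3 in turn, and 0 and 6, 1 and 13, and 1 and 30 without 2,4-D replicates 1, 2 and 3.

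Suberin and Casparian strip genes fell in 19 and rose in 2 of 25 tested cases (median log2 fold change -2.21). Myb domain protein 93 (LOC_Os02g51799.1), which in Arabidopsis is made in the endodermis over lateral root primordia, had 23.04, 15.1 and 15.0 CPM in mock and 2.29, 1.51 and 2.43 CPM in 2,4-D libraries (log2 fold change -3.08 ± 0.33 SE, edgeR adjusted p = 0.00794). Fatty acid reductase 4 (LOC_Os09g39410.1), of the enzymes that make the fatty alcohols of suberin, had 202, 173 and 93.3 and 10.04, 9.87 and 23.6 CPM (log2 fold change -3.42 ± 0.49 SE, edgeR adjusted p = 0.0123). A fatty acid hydroxylase of P450 family 86A (LOC_Os01g63540.1) had 81.99, 67.9 and 31.7 and 5.06, 3.85 and 7.77 CPM (log2 fold change -3.44 ± 0.46 SE, edgeR adjusted p = 0.0102). All 3 were lower in every 2,4-D library. For the last 2, omitting 2,4-D replicate 1 ended the call (adjusted p = 0.0554 and 0.0551). The list gave 0 and 9, 1 and 11, and 0 and 14 without mock replicates 1, 2 and 3 in turn, and 0 and 4, 0 and 9, and 1 and 22 without 2,4-D replicates 1, 2 and 3. Lipid transfer, GDSL and hydroxyproline-rich proteins, which sit in the wall and cuticle, fell in 31 and rose in 3 of 40 cases. A lipid transfer gene (LOC_Os10g40520.1) fell from 36.3, 108 and 81.8 to 2.45, 2.01 and 3.85 CPM (log2 fold change -4.76 ± 0.52 SE, edgeR adjusted p = 0.00838; not called with limma-voom), with the groups far apart. Its counts were 2 and 14, 2 and 17, and 4 and 23 without mock replicates 1, 2 and 3 in turn, and 1 and 6, 2 and 12, and 2 and 35 without 2,4-D replicates 1, 2 and 3.

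Class III peroxidases, which act in lignin and wall cross-linking and in defence, were split, with 8 higher and 14 lower of 35 (median log2 fold change -2.18). Of 2 that fell, LOC_Os01g15810.1 went from 87.9, 64.8 and 57.3 to 3.01, 3.43 and 6.21 CPM (log2 fold change -4.04 ± 0.36 SE, edgeR adjusted p = 0.00608) and LOC_Os04g34630.1 from 175, 155 and 129.8 to 9.25, 7.53 and 15.4 CPM (log2 fold change -3.83 ± 0.32 SE, edgeR adjusted p = 0.00523). The rise of LOC_Os04g59160.1 was smaller but even, from 48.6, 51.3 and 41.4 CPM in mock to 160.4, 183 and 167 CPM in 2,4-D libraries (log2 fold change 1.85 ± 0.14 SE, edgeR adjusted p = 0.00423). In none of the 3 did the groups overlap. The list gave 4 and 9, 6 and 11, and 6 and 14 without mock replicates 1, 2 and 3 in turn, and 2 and 7, 3 and 6, and 10 and 22 without 2,4-D replicates 1, 2 and 3.

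Markers of cell types of the root all come from the study's tables. Some are also members of the lists above, such as xylem cysteine peptidase 1, so that their moves are no separate evidence. The summed level of 6 xylem markers was 501 to 953 CPM in mock and 37.2 to 191 CPM in 2,4-D libraries, and 4 of them fell. That of 12 endodermis markers was 557 to 984 and 219 to 304 CPM, with 2 higher and 7 lower of 10 tested. For 3 markers of root and stele it was 335 to 391 and 104 to 129 CPM, and all 3 fell. AGAMOUS-like 12 (LOC_Os08g02070.1), a MADS factor of the root, had 197, 165 and 184 CPM in mock and 71.6, 62.2 and 74.8 CPM in 2,4-D libraries (log2 fold change -1.39 ± 0.14 SE, edgeR adjusted p = 0.0075). The potassium channel STELAR K+ outward rectifier, which in Arabidopsis loads the xylem, is annotated at LOC_Os04g36740.1 (14.1, 15.6 and 28.1 and 3.64, 3.01 and 2.77 CPM, log2 fold change -2.61 ± 0.35 SE, edgeR adjusted p = 0.01; not called without 2,4-D replicate 1 or with limma-voom) and LOC_Os06g14030.1 (197, 164 and 177 and 48.5, 69.4 and 30.5 CPM, log2 fold change -1.86 ± 0.31 SE, edgeR adjusted p = 0.0173; its call ended by omitting mock 1 or 2,4-D 1). The groups stayed apart in all 3 genes. The summed level was higher with 2,4-D for 3 phloem markers (94.7 to 124 and 136 to 283 CPM), although 1 was called higher and 1 lower. It was also higher for 4 markers of green tissue (19.1 to 34.3 and 48.0 to 73.3 CPM), with 2 called higher and 0 lower. No marker was at 0 in a group. Called xylem markers were 0 and 1, 0 and 2, and 0 and 2 without mock replicates 1, 2 and 3 in turn, and 0 and 1, 0 and 2, and 0 and 6 without 2,4-D replicates 1, 2 and 3. Called endodermis markers were 0 and 3, 1 and 4, and 0 and 3 without mock replicates 1, 2 and 3 in turn, and 0 and 0, 0 and 3, and 1 and 8 without 2,4-D replicates 1, 2 and 3. Called markers of root and stele were 0 and 2, 0 and 3, and 0 and 3 without mock replicates 1, 2 and 3 in turn, and 0 and 1, 0 and 3, and 0 and 3 without 2,4-D replicates 1, 2 and 3. The labelled tissue, root, has its markers in both groups. The part of these cell types in the changes of wall, lignin and suberin genes was not tested.

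Enzymes that modify small molecules held some of the steepest and most even falls. Sulfotransferases, which add sulfate groups, are listed with terpenoid genes, of which 8 fell and 2 rose of 12 (median log2 fold change -2.99). A sulfotransferase 2A (LOC_Os08g40380.1) went from 26.4, 20.99 and 32.9 CPM in mock to 1.27, 0.251 and 0.675 CPM in 2,4-D libraries (log2 fold change -5.17 ± 0.55 SE, edgeR adjusted p = 0.00794). A sulfotransferase 4A (LOC_Os11g30910.1) went from 36.4, 20.7 and 39.6 to 0.158, 0.669 and 1.08 CPM (log2 fold change -5.62 ± 0.63 SE, edgeR adjusted p = 0.00865; not called with limma-voom). Both were near or under 1 CPM in all treated libraries. A UDP-glycosyltransferase (LOC_Os07g10190.1), of the family that attaches sugars to hormones and toxins, went from 65.5, 48.5 and 84.8 to 3.72, 2.17 and 2.701 CPM (log2 fold change -4.53 ± 0.33 SE, edgeR adjusted p = 0.00415). Among 21 UDP-glycosyltransferases 12 fell and 4 rose. A cytochrome P450 of family 76C (LOC_Os10g08319.1) went from 278, 209.8 and 149 to 9.17, 4.601 and 6.28 CPM (log2 fold change -4.99 ± 0.38 SE, edgeR adjusted p = 0.00423). One of family 71B (LOC_Os01g72740.1) went from 167, 115 and 149 to 21.6, 17.4 and 18.7 CPM (log2 fold change -2.902 ± 0.20 SE, edgeR adjusted p = 0.00396). Among 29 P450 genes 13 fell and 8 rose. Among 11 glutathione S-transferases 6 fell and 1 rose. In this paragraph every named gene had separate groups. The terpenoid and sulfotransferase list gave 1 and 6, 2 and 6, and 1 and 8 without mock replicates 1, 2 and 3 in turn, and 0 and 7, 1 and 7, and 1 and 10 without 2,4-D replicates 1, 2 and 3. For UDP-glycosyltransferases the counts were 3 and 9, 4 and 10, and 4 and 13 without mock replicates 1, 2 and 3 in turn, and 1 and 5, 2 and 9, and 5 and 12 without 2,4-D replicates 1, 2 and 3. For P450 genes they were 3 and 6, 6 and 7, and 5 and 10 without mock replicates 1, 2 and 3 in turn, and 1 and 5, 3 and 6, and 9 and 14 without 2,4-D replicates 1, 2 and 3. For glutathione S-transferases they were 1 and 5, 0 and 5, and 2 and 5 without mock replicates 1, 2 and 3 in turn, and 0 and 0, 0 and 3, and 1 and 9 without 2,4-D replicates 1, 2 and 3.

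Exporters were divided, with 14 MATE and ABC transporters higher and 11 lower of 32. Pleiotropic drug resistance 12 (LOC_Os08g29570.1), an ABC exporter, went from 28.1, 49.9 and 36.5 CPM in mock to 263, 229.6 and 214 CPM in 2,4-D libraries (log2 fold change 2.63 ± 0.25 SE, edgeR adjusted p = 0.0061). A MATE efflux gene (LOC_Os10g20450.1) went from 11.2, 11.9 and 8.02 to 141, 94.3 and 57.8 CPM (log2 fold change 3.23 ± 0.38 SE, edgeR adjusted p = 0.00869). The treated libraries were even in the first and spread in the second, with replicate 3 lowest. Multidrug resistance-associated protein 9 (LOC_Os04g49900.1) went down from 123, 135 and 354 to 19.5, 22.8 and 12.7 CPM (log2 fold change -3.48 ± 0.51 SE, edgeR adjusted p = 0.0131), and was not called without 2,4-D replicate 1 (adjusted p = 0.0678). Mock replicate 3 was by far its highest library. Counts were 8 and 10, 10 and 9, and 10 and 10 without mock replicates 1, 2 and 3 in turn, and 5 and 2, 9 and 4, and 16 and 12 without 2,4-D replicates 1, 2 and 3.

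Receptor kinases of the cysteine-rich, lectin, wall-associated and LysM classes, most of which sense microbes or wall fragments, were mostly higher, with 23 higher and 6 lower of 44 (median log2 fold change 1.54). The cysteine-rich kinase LOC_Os07g35280.1 had 5.34, 6.65 and 2.77 CPM in mock and 76.95, 83.6 and 45.4 CPM in 2,4-D libraries (log2 fold change 3.79 ± 0.42 SE, edgeR adjusted p = 0.00847). LOC_Os05g41370.1 had 2.46, 2.58 and 2.48 and 21.4, 19.2 and 15.3 CPM (log2 fold change 2.89 ± 0.24 SE, edgeR adjusted p = 0.00487). The mock libraries of the latter were nearly equal. Another, LOC_Os02g27310.1, had 1.19, 2.002 and 1.91 and 15.98, 10.4 and 15.9 CPM (log2 fold change 3.05 ± 0.36 SE, edgeR adjusted p = 0.00869). Wall-associated kinase 2 (LOC_Os07g31190.1) had 8.71, 9.75 and 9.84 and 78.9, 84.7 and 37.2 CPM (log2 fold change 2.82 ± 0.34 SE, edgeR adjusted p = 0.00891). All 4 were separate between groups. The cysteine-rich kinase LOC_Os11g44690.1 fell instead, from 31.9, 28.1 and 28.2 to 5.54, 2.68 and 4.86 CPM (log2 fold change -2.75 ± 0.31 SE, edgeR adjusted p = 0.00847). Counts of the list were 16 and 2, 19 and 3, and 23 and 5 without mock replicates 1, 2 and 3 in turn, and 11 and 1, 16 and 2, and 25 and 6 without 2,4-D replicates 1, 2 and 3. Leucine-rich repeat kinases gave 18 higher and 9 lower of 43. Among them LOC_Os10g22890.1 went from 2.32, 3.36 and 5.25 to 23.3, 32.1 and 31.9 CPM (log2 fold change 3.004 ± 0.35 SE, edgeR adjusted p = 0.00869), and LOC_Os11g12530.1 from 263, 323 and 353 to 27.4, 48.9 and 55.2 CPM (log2 fold change -2.84 ± 0.30 SE, edgeR adjusted p = 0.008). Neither had overlapping groups. Their counts were 13 and 3, 11 and 3, and 16 and 8 without mock replicates 1, 2 and 3 in turn, and 5 and 2, 8 and 3, and 18 and 18 without 2,4-D replicates 1, 2 and 3.

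The NB-ARC proteins, intracellular immune receptors, moved in both directions, with 13 higher and 21 lower of 45 (median log2 fold change -1.17). Of the members that rose, LOC_Os02g18070.1 stood at 1.83, 1.81 and 1.91 CPM in mock and 46.7, 24.7 and 33.7 CPM in 2,4-D libraries (log2 fold change 4.24 ± 0.30 SE, edgeR adjusted p = 0.00415), and LOC_Os02g18140.1, of a nearby locus number, at 4.22, 4.39 and 3.63 and 22.9, 24.3 and 14.8 CPM (log2 fold change 2.34 ± 0.27 SE, edgeR adjusted p = 0.00869). LOC_Os11g45980.1 fell, with 29.9, 35.5 and 30.95 and 3.72, 3.85 and 2.296 CPM (log2 fold change -3.29 ± 0.26 SE, edgeR adjusted p = 0.00447). The mock libraries of these receptors were close together, and no group overlapped. The share of lower calls was highest on chromosome 11, with 70 of 745 tested transcripts (9.40%), and on chromosome 10, with 63 of 712 (8.85%), beside 4.61 to 6.91% on the other chromosomes. No test of that share was made. Counts of the NB-ARC list were 10 and 13, 10 and 12, and 10 and 14 without mock replicates 1, 2 and 3 in turn, and 5 and 2, 7 and 11, and 13 and 23 without 2,4-D replicates 1, 2 and 3. Ubiquitin ligases, VQ and MLO proteins, which regulate defence, share a list with azelaic acid induced 1. Of 15 tested members of that list, 11 rose and 1 fell. The member that fell was azelaic acid induced 1 (LOC_Os03g01300.1, log2 fold change -3.87, edgeR adjusted p = 0.0132). It was not called without 2,4-D replicate 1 (adjusted p = 0.0658). A VQ motif protein (LOC_Os02g15280.1) had 1.26, 2.97 and 1.15 and 12.7, 12.4 and 13.2 CPM (log2 fold change 2.81 ± 0.45 SE, edgeR adjusted p = 0.015), with no call without 2,4-D replicate 1 (adjusted p = 0.0619). The treated libraries were nearly equal. Counts of that list were 5 and 1, 7 and 1, and 8 and 1 without mock replicates 1, 2 and 3 in turn, and 0 and 0, 3 and 1, and 11 and 1 without 2,4-D replicates 1, 2 and 3.

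Genes of nitrogen use were few. Of 11 tested, 2 rose, 2 fell and 7 were not called, although the median log2 fold change was 2.01. With DESeq2 the counts were 6 higher and 3 lower. A glutamine synthase (LOC_Os03g50490.1), which fixes ammonium, went from 13.1, 23.5 and 19.5 CPM in mock to 156, 158 and 77.2 CPM in 2,4-D libraries (log2 fold change 2.804 ± 0.37 SE, edgeR adjusted p = 0.01). Glutamate decarboxylase 4 (LOC_Os04g37500.1), which turns glutamate into GABA, went from 128, 164 and 128 to 5.14, 3.095 and 11.2 CPM (log2 fold change -4.42 ± 0.51 SE, edgeR adjusted p = 0.00869). Ammonium transporter 2 (LOC_Os01g61510.1) had 3.93, 3.49 and 5.54 and 23.2, 23.6 and 13.6 CPM (log2 fold change 2.22 ± 0.33 SE, edgeR adjusted p = 0.0128), not called without 2,4-D replicate 1 (adjusted p = 0.0619) or 2 (0.0514). In all 3 genes the groups were separate and 2,4-D replicate 3 was the treated library closest to mock. Counts were 3 and 1, 2 and 2, and 4 and 2 without mock replicates 1, 2 and 3 in turn, and 1 and 1, 1 and 1, and 4 and 3 without 2,4-D replicates 1, 2 and 3. Mineral transport genes fell in 15 and rose in 2 of 27 cases. The FER-like regulator of iron uptake (LOC_Os04g31290.1) had 32.04, 16.3 and 21.3 and 1.82, 1.67 and 2.296 CPM (log2 fold change -3.58 ± 0.34 SE, edgeR adjusted p = 0.0061; not called with limma-voom). A copper chaperone (LOC_Os08g31340.1) had 67.9, 73.9 and 54.5 and 12.2, 12.05 and 13.2 CPM (log2 fold change -2.39 ± 0.17 SE, edgeR adjusted p = 0.00415). The treated libraries of both were close together. Counts were 1 and 11, 2 and 12, and 0 and 14 without mock replicates 1, 2 and 3 in turn, and 0 and 5, 1 and 9, and 3 and 16 without 2,4-D replicates 1, 2 and 3.

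Sugar and starch genes were divided, with 9 higher and 10 lower of 30. Sugar transporter 1 (LOC_Os07g37320.1), a hexose carrier in Arabidopsis, went from 69.8, 76.5 and 70.1 CPM in mock to 558, 703 and 301 CPM in 2,4-D libraries (log2 fold change 2.85 ± 0.33 SE, edgeR adjusted p = 0.00869). A starch synthase (LOC_Os06g06560.1) went from 13.7, 11.9 and 10.2 to 59.8, 87.8 and 106 CPM (log2 fold change 2.82 ± 0.26 SE, edgeR adjusted p = 0.0061). In the starch synthase 2,4-D replicate 3 was the highest library. Cell wall invertase 2 (LOC_Os04g33740.1) and sucrose synthase 6 (LOC_Os02g58480.1), both of which split sucrose, fell, from 83.7, 92.4 and 67.3 to 20.8, 16.9 and 21.9 CPM (log2 fold change -2.03 ± 0.19 SE, edgeR adjusted p = 0.0061) and from 38.2, 50.2 and 32.9 to 6.41, 7.36 and 9.52 CPM (log2 fold change -2.38 ± 0.25 SE, edgeR adjusted p = 0.00784). The groups stood apart in all 4. Counts were 6 and 5, 6 and 7, and 5 and 7 without mock replicates 1, 2 and 3 in turn, and 3 and 4, 6 and 6, and 11 and 10 without 2,4-D replicates 1, 2 and 3. Aquaporins were called lower in 3 and higher in 1 of 11 cases, although the median log2 fold change was -2.13. The largest loss in mean CPM among them was that of plasma membrane intrinsic protein 1;4 (LOC_Os04g47220.1), a water channel, at 3221, 3189 and 3879 CPM in mock and 790.3, 1283 and 1553 CPM in 2,4-D libraries (log2 fold change -1.504 ± 0.29 SE, edgeR adjusted p = 0.0256). It was no longer called without any 1 of the libraries other than 2,4-D replicate 3 (adjusted p = 0.0512 to 0.0888). Counts were 1 and 0, 1 and 1, and 1 and 2 without mock replicates 1, 2 and 3 in turn, and 0 and 0, 1 and 0, and 1 and 8 without 2,4-D replicates 1, 2 and 3. Peptide, amino acid, MtN21 and MFS transporters fell in 23 and rose in 7 of 38 cases. A bidirectional amino acid transporter (LOC_Os01g71760.1) had 2.74, 3.49 and 3.73 and 14.9, 15.1 and 13.2 CPM (log2 fold change 2.12 ± 0.25 SE, edgeR adjusted p = 0.00869), even within both groups. Counts were 5 and 15, 6 and 17, and 5 and 20 without mock replicates 1, 2 and 3 in turn, and 3 and 9, 4 and 13, and 7 and 28 without 2,4-D replicates 1, 2 and 3.

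Proteases fell in 20 and rose in 10 of 43 cases. Gamma vacuolar processing enzyme (LOC_Os05g51570.1), a protease that matures vacuolar proteins, had 130.3, 133 and 125 CPM in mock and 10.04, 7.36 and 14.9 CPM in 2,4-D libraries (log2 fold change -3.59 ± 0.29 SE, edgeR adjusted p = 0.00467), while a subtilisin-like gene (LOC_Os09g30250.1) had 10.7, 11.8 and 11.5 and 132, 97.5 and 47.6 CPM (log2 fold change 3.03 ± 0.39 SE, edgeR adjusted p = 0.00957). Both had tight mock values and separate groups. Counts were 6 and 14, 11 and 16, and 12 and 16 without mock replicates 1, 2 and 3 in turn, and 4 and 9, 7 and 13, and 11 and 21 without 2,4-D replicates 1, 2 and 3. Among the smallest adjusted p-values over all transcripts stood 2 genes of amino acid and nitrogen chemistry. A class I glutamine amidotransferase-like gene (LOC_Os01g11860.1) went from 7.87, 7.94 and 8.22 to 32.1, 31.2 and 34.2 CPM (log2 fold change 2.02 ± 0.15 SE, edgeR adjusted p = 0.00415). A D-amino acid aminotransferase-like gene (LOC_Os02g17330.1) went from 55.99, 52.96 and 66.2 to 11.1, 11.8 and 11.1 CPM (log2 fold change -2.37 ± 0.16 SE, edgeR adjusted p = 0.00396). Replicates of each group lay within a narrow range in both.

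Some called loci lay next to each other. Ordered by locus number among the tested loci, 544 higher and 667 lower called loci had no neighbour called in the same direction. The others formed 61 higher and 51 lower runs of 2, 5 higher and 15 lower runs of 3, 3 higher runs and 1 lower run of 4, and 1 run of 7 and 1 of 8 that were all lower. No test was made of whether neighbours were called together. Neighbouring genes can be copies that share reads, and the sources used here do not give how the counting treated such reads, so values within a run may not be independent. The run of 8 lies on chromosome 10, from LOC_Os10g31630 to LOC_Os10g31730, and none of its transcripts has a description in the tables. LOC_Os10g31730.1 stood at 191, 200.0 and 294 CPM in mock and 1.19, 0.669 and 0.2701 CPM in 2,4-D libraries (log2 fold change -8.34 ± 0.54 SE, edgeR adjusted p = 0.00396), the largest fall on the log2 scale among the transcripts called at 10 CPM. LOC_Os10g31660.1, the most abundant of the run, had 3549, 1386 and 2671 and 389.7, 406 and 188 CPM (log2 fold change -2.95 ± 0.48 SE, edgeR adjusted p = 0.0162). The latter was not called without 2,4-D replicate 1 (adjusted p = 0.0672) or 2 (0.0531). LOC_Os10g31720.1 (75.3, 68.7 and 184 and 2.14, 1.17 and 0.203 CPM, log2 fold change -6.56 ± 0.86 SE, edgeR adjusted p = 0.01) and LOC_Os10g31670.1 (106, 118 and 296 and 2.77, 0.251 and 0.5403 CPM, log2 fold change -7.19 ± 0.98 SE, edgeR adjusted p = 0.0109) kept their calls without each library but not with limma-voom. Of the other 4, LOC_Os10g31640.1 (-4.38, adjusted p = 0.0192 by edgeR) was not called when mock 1 or 2,4-D 2 was omitted. LOC_Os10g31630.1 (-5.08, adjusted p = 0.0161 by edgeR) lost it without 2,4-D replicate 1 or with limma-voom, and LOC_Os10g31710.1 (-5.72, 0.019) without 2,4-D replicate 1 or 2 or with limma-voom. LOC_Os10g31680.1 (-5.78, adjusted p = 0.0278 by edgeR) depended on mock 1, mock 3, 2,4-D 1 and 2,4-D 2 and on the filter. Within the same stretch LOC_Os10g31690.1, under the filter of 10 CPM, had 20, 64 and 73 counts in mock and 0, 0 and 0 in 2,4-D libraries, and its call at 1 CPM was lost without mock replicate 2 or 3 or without 2,4-D replicate 1 or 2. 2,4-D replicate 3 was the lowest treated library in 5 of the 8.

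**Figure D3:**
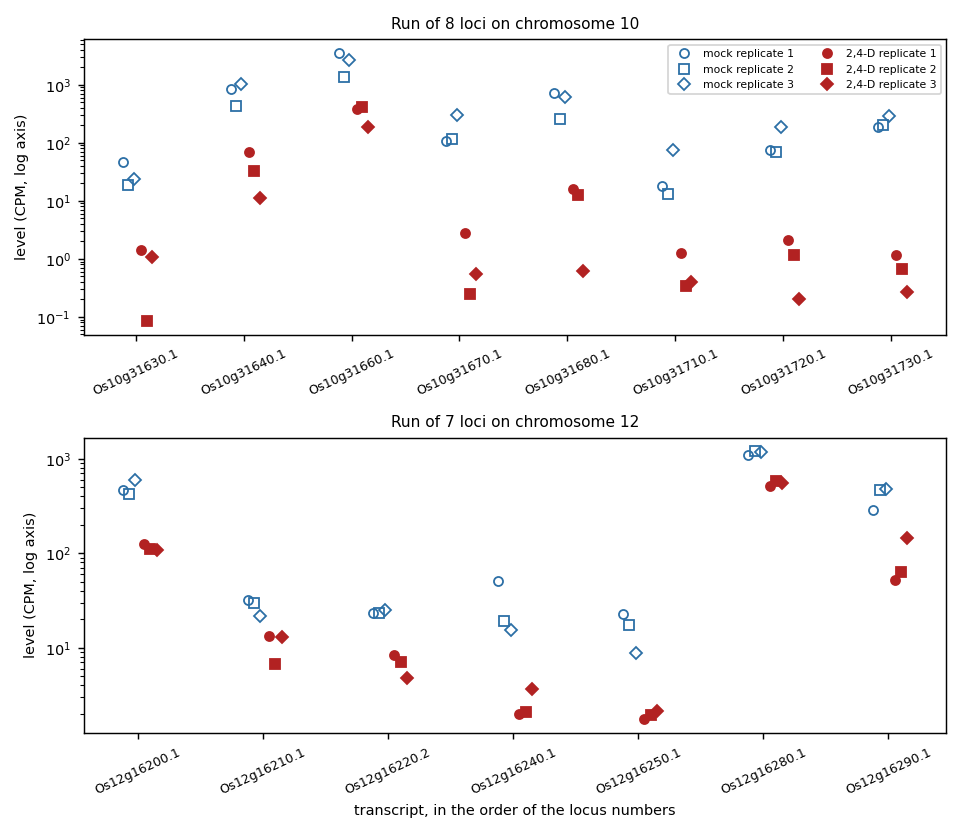
Levels (CPM, log axis) of the 8 transcripts of the run on chromosome 10 and of the 7 of the run on chromosome 12, in the order of their locus numbers, with open symbols for mock and filled symbols for 2,4-D libraries (circle, square and diamond for replicates 1, 2 and 3). Every filled symbol lies below the open symbols of its transcript, for Os10g31730.1 at 0.270 to 1.19 CPM against 191 to 294 CPM.

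The run of 7, from LOC_Os12g16200 to LOC_Os12g16290 on chromosome 12, holds 4 genes described as pinoresinol reductases, enzymes of lignan synthesis. Glutathione synthetase 2 (LOC_Os12g16200.1) had 468, 419 and 591 CPM in mock and 124, 109.6 and 108 CPM in 2,4-D libraries (log2 fold change -2.11 ± 0.18 SE, edgeR adjusted p = 0.00523). Pinoresinol reductase 1 (LOC_Os12g16220.2) had 23.5, 23.1 and 25.03 and 8.38, 7.11 and 4.73 CPM (log2 fold change -1.82 ± 0.26 SE, edgeR adjusted p = 0.0112). Both kept their calls without each library. The other 5 each lost theirs, or their place above the filter, without at least 1 library, 2,4-D replicate 1 among them in every case. They were LOC_Os12g16210.1 (a DHHC zinc finger gene, -1.34, adjusted p = 0.0448 by edgeR), the pinoresinol reductases LOC_Os12g16240.1 (-3.46, 0.0178), LOC_Os12g16250.1 (-3.07, 0.0104) and LOC_Os12g16290.1 (-2.24, 0.0274), and LOC_Os12g16280.1 (-1.09, 0.011), which has no description and was the most abundant of the run. With limma-voom LOC_Os12g16240.1 and LOC_Os12g16250.1 were not called, and on library totals alone LOC_Os12g16210.1 and LOC_Os12g16280.1 were not. Of the runs of 4 that were higher, the one on chromosome 7 ends in 3 cysteine-rich receptor kinases. Next to LOC_Os07g35280.1, given above, LOC_Os07g35290.1 had 21.1, 21.3 and 20.3 and 110.0, 126 and 71.9 CPM (log2 fold change 2.29 ± 0.24 SE, edgeR adjusted p = 0.00768). LOC_Os07g35300.1 had 5.48, 5.55 and 5.92 and 26.3, 20.7 and 31.1 CPM (log2 fold change 2.203 ± 0.22 SE, edgeR adjusted p = 0.00691). The groups were separate in all 3. Before them in locus number, LOC_Os07g35190.1 was at 0 counts in all mock libraries and at 36, 20 and 22 counts in 2,4-D libraries, with its call at 1 CPM lost without 2,4-D replicate 1 or 2. The run on chromosome 2, from LOC_Os02g36140 to LOC_Os02g36280, is absent from the tables. LOC_Os02g36190.1 had 1.33, 3.10 and 1.91 CPM in mock and 28.0, 22.0 and 85.6 CPM in 2,4-D libraries (log2 fold change 4.404 ± 0.68 SE, edgeR adjusted p = 0.0146). LOC_Os02g36210.1 had 1.26, 1.61 and 2.48 and 30.8, 15.5 and 290.3 CPM (log2 fold change 5.98 ± 1.34 SE, edgeR adjusted p = 0.037). 2,4-D replicate 3 was the highest library in both, and by almost 10 times in the second. LOC_Os02g36190.1 was not called without mock replicate 1 (adjusted p = 0.0540) or with limma-voom, and LOC_Os02g36210.1 not without any 1 mock library or 2,4-D replicate 1 (adjusted p = 0.0717 to 0.119), with limma-voom, without a filter or with all 18 libraries in 1 fit.

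Of the 1528 called transcripts, 267 are not in the study's supplementary tables, 105 of them higher and 162 lower. They had a median log2 fold change of 1.85 in size and a median adjusted p of 0.0292 by edgeR, against 2.07 and 0.0189 for the 1261 that are in the tables. Of the 267, 20 (7.49%) kept the call whichever library was left out, against 301 (23.9%) of the 1261. They carry no description here and are given by identifier, and the first 4 named were chosen after their values were seen. LOC_Os06g07300.1 fell from 19.4, 29.3 and 31.9 CPM in mock to 0.237, 0.0837 and 0.338 CPM in 2,4-D libraries (log2 fold change -6.84 ± 0.47 SE, edgeR adjusted p = 0.00415), LOC_Os06g28670.1 from 43.9, 46.8 and 37.4 to 0.633, 0.251 and 1.01 CPM (log2 fold change -6.03 ± 0.45 SE, edgeR adjusted p = 0.00415) and LOC_Os12g41090.1 from 83.7, 68.98 and 76.4 to 7.04, 8.62 and 11.8 CPM (log2 fold change -3.06 ± 0.24 SE, edgeR adjusted p = 0.00423). All 3 were lower in each treated library than in any mock library, and the first 2 were near or under 1 CPM there. LOC_Os10g34940.1 rose from 3.44, 2.45 and 3.25 to 15.3, 13.7 and 15.6 CPM (log2 fold change 2.28 ± 0.26 SE, edgeR adjusted p = 0.00847), evenly in all treated libraries. LOC_Os02g17000.1 rose from 0.843, 3.04 and 0.764 to 74.1, 33.7 and 48.8 CPM (log2 fold change 5.03 ± 0.65 SE, edgeR adjusted p = 0.0098; not called with limma-voom). The most abundant of these rises were 2 neighbours on chromosome 12. LOC_Os12g36830.1 went from 461, 571 and 269 to 2587, 1335 and 2599 CPM (log2 fold change 2.32 ± 0.40 SE, edgeR adjusted p = 0.0192) and LOC_Os12g36850.1 from 192, 177 and 134 to 924, 499 and 842 CPM (log2 fold change 2.17 ± 0.29 SE, edgeR adjusted p = 0.0102). In both, 2,4-D replicate 2 was the lowest treated library and the groups did not overlap, but neither was called with all 18 libraries in 1 fit, and the first was not called without mock replicate 1 (adjusted p = 0.0652) or 2,4-D replicate 1 (0.0701). LOC_Os12g27350.1 shows a fold enlarged by 1 library, with 43.7, 54.4 and 531 CPM in mock and 1.03, 0.753 and 1.62 CPM in 2,4-D libraries (log2 fold change -7.502 ± 1.34 SE, edgeR adjusted p = 0.0206). Its mock replicate 3 was about 10 times the other mock libraries, and it was not called without 2,4-D replicate 1 or 2 (adjusted p = 0.0958 and 0.0809), with limma-voom, with DESeq2 or without a filter.

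Below the filter of 10 CPM, the fit at 1 CPM called 392 higher (4.39%) and 433 lower (4.84%) of 8938 further transcripts, 9.23% in all, and 74 of these 825 are in the study's tables. The count fell to 95 without 2,4-D replicate 1, 190 without 2,4-D replicate 2, 256 and 397 on omitting mock replicates 1 or 2, and was 587 without mock replicate 3, 1033 without 2,4-D replicate 3 and 1551 with DESeq2. In 15 of them one group had no count at all, the mock group in 5 and the 2,4-D group in 10. LOC_Os09g18470.1 had 249, 138 and 78 counts in the mock libraries and 0, 0 and 0 in the 2,4-D libraries. Against a floor of 3 counts over the 3 libraries of the group at 0, it was at least 149-fold lower with 2,4-D (adjusted p = 0.00987 by edgeR). LOC_Os02g37500.1 had 54, 32 and 19 and 0, 0 and 0 counts and was at least 33.9-fold lower (adjusted p = 0.0148 by edgeR). In the other direction LOC_Os01g19430.1 had 0, 0 and 0 counts in mock and 34, 30 and 56 counts in 2,4-D libraries, at least 39.7-fold higher (adjusted p = 0.00994 by edgeR), but was not called without 2,4-D replicate 1. LOC_Os11g13390.1 had 0, 1 and 0 and 71, 48 and 109 counts (adjusted p = 0.00677 by edgeR). Zero counts here mean only that none was seen at this depth. The floors of 3 counts cover counting error only and leave out the spread between libraries.

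Of the 14 RT-PCR genes, 11 were tested and 8 were called, all higher. Calcium-dependent protein kinase 13 (LOC_Os08g42750.1), which relays calcium signals, had 1.83, 3.16 and 1.24 CPM in mock and 32.4, 44.7 and 18.98 CPM in 2,4-D libraries (log2 fold change 3.92 ± 0.49 SE, edgeR adjusted p = 0.00909; not called with limma-voom). NAC domain protein 87 (LOC_Os12g03050.1) had 0.773, 4.33 and 3.25 and 21.9, 18.2 and 12.9 CPM (log2 fold change 2.66 ± 0.62 SE, edgeR adjusted p = 0.041). The NAC gene dropped out when mock 2, mock 3, 2,4-D 1 or 2,4-D 2 was left out (adjusted p = 0.0564 to 0.136) and with limma-voom. The 3 that were tested and not called had wide mock groups. WRKY 70 (LOC_Os03g21710.1) had 3.44, 25.0 and 6.88 and 92.3, 52.9 and 51.8 CPM (log2 fold change 2.47 ± 0.75 SE, edgeR adjusted p = 0.0797). Early nodulin-like protein 17 (LOC_Os08g37660.1) had 3.02, 25.1 and 5.25 and 90.5, 40.7 and 105 CPM (log2 fold change 2.81 ± 0.86 SE, edgeR adjusted p = 0.0817). In both, mock replicate 2 was the highest mock library, the groups still did not overlap, and without mock replicate 2 both passed (adjusted p = 0.0228 and 0.0235). Both were also called with DESeq2, and WRKY 70 was called with limma-voom. Dynamin-like 1E (LOC_Os09g39960.1) had 42.7, 77.5 and 109 and 192, 236 and 127 CPM (log2 fold change 1.28 ± 0.39 SE, edgeR adjusted p = 0.0821), with 2,4-D replicate 3 just above mock replicate 3, and was called with DESeq2 or with all 18 libraries in 1 fit. The 3 under the filter of 10 CPM were called in the fit at 1 CPM. LOC_Os05g16824.1, a leucine-rich repeat kinase of the SHR5 type, had 1.68, 1.51 and 1.72 CPM in mock and 6.23, 14.4 and 7.25 CPM in 2,4-D libraries (log2 fold change 2.50 ± 0.40 SE, edgeR adjusted p = 0.0158 at 1 CPM). The wall-associated kinase LOC_Os04g51040.1 had 1.62, 0.816 and 1.62 and 5.46, 9.57 and 13.1 CPM (log2 fold change 2.80 ± 0.46 SE, edgeR adjusted p = 0.0173 at 1 CPM), and the GRAS factor LOC_Os11g04570.1 3.71, 4.01 and 4.01 and 9.46, 7.799 and 8.93 CPM (log2 fold change 1.16 ± 0.22 SE, edgeR adjusted p = 0.0239 at 1 CPM). No treated library overlapped a mock library in these 3, but each was no longer called without mock replicate 1 and without at least 1 more library.

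The treated libraries were not equally far from mock. On a scale of log2(CPM + 1) where 0 is the mean of mock replicates 1 and 2 and 1 the mean of 2,4-D replicates 1 and 2, 2,4-D replicate 3 lay at a median of 0.81 over the 1528 called transcripts (quartiles 0.68 and 1.02), and mock replicate 3 at 0.00. The position differed between lists. It was 0.69 for secondary wall and xylem, 0.71 for lipid transfer proteins, 0.73 for DNA repair and RNA handling and 0.75 for primary wall remodelling, but 1.09 for cytokinin, 0.97 for P450, 0.94 for NB-ARC and 0.93 for mineral transport genes. Of the 25 called secondary wall transcripts 13 lay under 0.7, and of the 34 called NB-ARC transcripts 18 lay at 0.9 or above. Because all 3 treated libraries entered the choice of the called transcripts, these positions are a description with no test. Summed xylem markers, which share at least xylem cysteine peptidase 1 with the secondary wall list, were at 191 CPM in 2,4-D replicate 3. They were at 59.7 and 37.2 CPM in the other treated libraries.

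**Figure D4:**
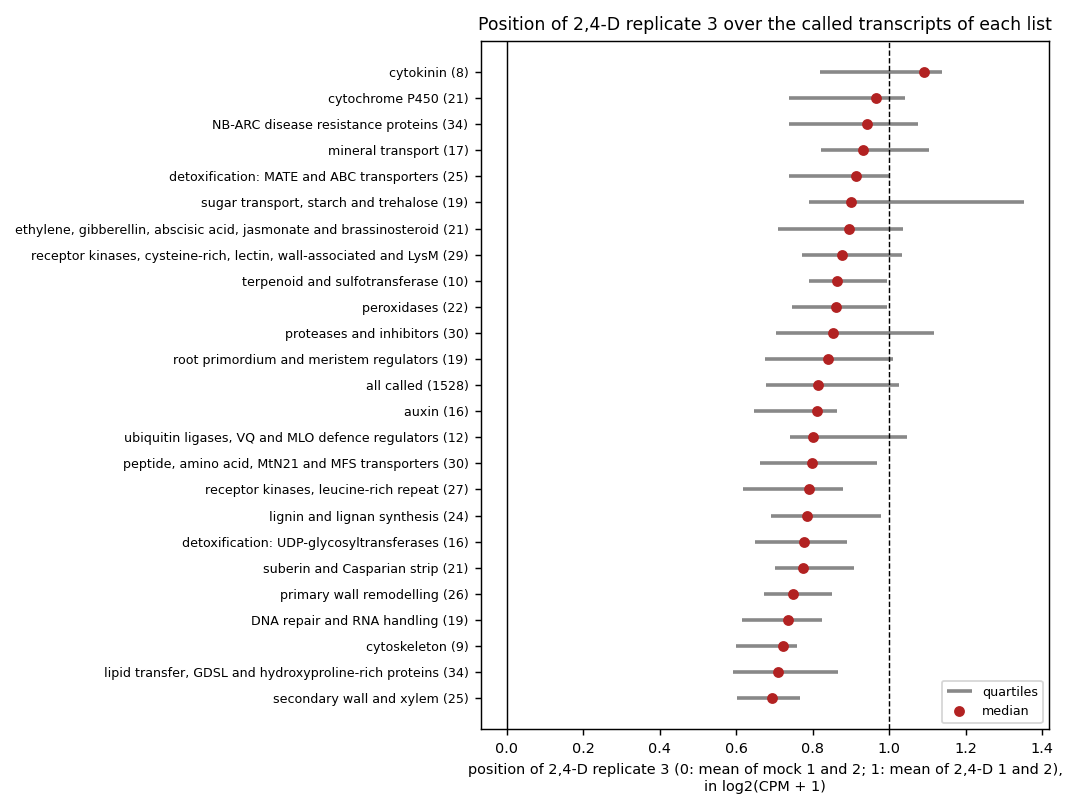
Position of 2,4-D replicate 3 in log2(CPM + 1) between the mean of mock replicates 1 and 2 (0) and that of 2,4-D replicates 1 and 2 (1), as median (point) and quartiles (bar) over the called transcripts of each list with 8 or more, their number in parentheses. The medians run from 0.69 for secondary wall and xylem to 1.09 for cytokinin.

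Against the other times of the series, the 2,4-D effect at 7 dpt was compared through the difference of effects in a fit of all 18 libraries over 15149 transcripts. Between 7 and 14 dpt edgeR called none (0%; smallest adjusted p = 0.827, 853 at an unadjusted p under 0.05), limma-voom also 0 and DESeq2 4. Between 7 and 1 dpt edgeR called 11 (0.0726%), 6 more positive and 5 more negative at 7 dpt, limma-voom 0 and DESeq2 340. By the labels the 1 dpt libraries were sequenced in another batch than those of 7 and 14 dpt, so that time and batch cannot be told apart there. The study describes 1 pool of 3 treated and 3 control libraries on 1 lane, and does not name their day there. Whether 7 and 14 dpt libraries shared a lane is not stated outright in any source used here. The 11 fell to 0 without any single 7 dpt library other than 2,4-D replicate 3, and without that library there were 40. The subtilase LOC_Os02g17150.1, a protease, had 12.3, 17.9 and 18.2 CPM in mock and 0.316, 0.418 and 0.608 CPM in 2,4-D libraries at 7 dpt (log2 fold change -5.13 ± 0.39 SE, edgeR adjusted p = 0.00415), and its log2 fold change in the common fit was 0.93 at 1 dpt, -5.10 at 7 dpt and -3.65 at 14 dpt. An MtN21-type transporter (LOC_Os07g34110.1) had 153, 119 and 203 and 34.7, 15.9 and 24.8 CPM at 7 dpt (log2 fold change -2.65 ± 0.35 SE, edgeR adjusted p = 0.01), with 0.12, -2.62 and -1.59 at the 3 times. In both the groups were separate at 7 dpt. LOC_Os06g40870.1, with no description, had 17.6, 14.8 and 14.04 and 61.1, 47.1 and 46.1 CPM (log2 fold change 1.73 ± 0.19 SE, edgeR adjusted p = 0.00813), with -1.99, 1.77 and 2.02. Its mock and treated libraries each lay close together. Other members held much the same log2 fold change at each time, such as the glycosyl hydrolase 10 gene LOC_Os03g10440.1 with -5.63, -5.60 and -5.26. A further set was high at 1 and 7 dpt and near 0 at 14 dpt, among them P-glycoprotein 11 (LOC_Os01g50100.1, 3.64, 4.10 and 0.52), pleiotropic drug resistance 12 (LOC_Os08g29570.1, 2.66, 2.66 and 0.36) and the undescribed LOC_Os10g34940.1 (3.67, 2.32 and -0.18), LOC_Os12g36850.1 (2.23, 2.21 and 0.21) and LOC_Os02g36190.1 (3.34, 4.43 and -0.77). That set was picked by its values, and for none of the 5 did the difference between 7 and 14 dpt pass (adjusted p = 0.827 for the first, by edgeR). The 1 dpt effect itself did not pass for LOC_Os12g36850.1 (± 0.93 SE, edgeR adjusted p = 0.120) and LOC_Os02g36190.1 (± 1.37 SE, edgeR adjusted p = 0.113).

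**Figure D5:**
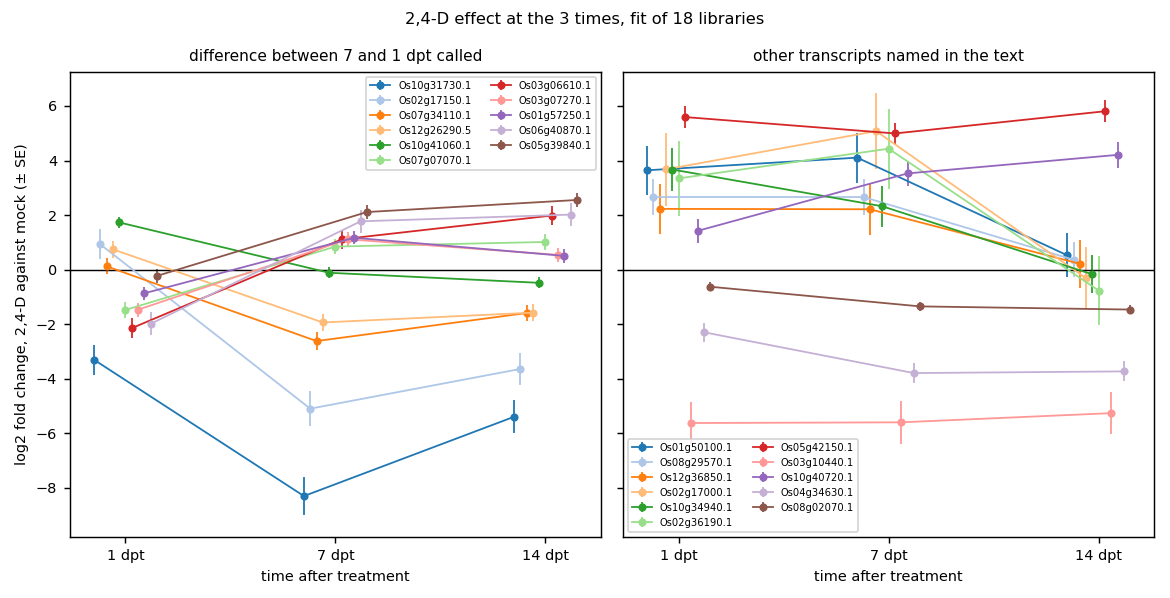
Log2 fold change of 2,4-D against mock (± SE) at 1, 7 and 14 dpt in the fit of 18 libraries, for the 11 transcripts whose difference between 7 and 1 dpt was called (left) and for 11 other named transcripts (right). On the left Os02g17150.1 goes from 0.93 at 1 dpt to -5.10 at 7 dpt, and on the right Os03g10440.1 stays between -5.26 and -5.63.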

How the data were processed

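RNA of rice roots was sequenced in 18 libraries, of which the 6 of 7 dpt were compared. Per the study's methods, the authors aligned paired reads of a stranded mRNA library with Rsubread to the MSU v7 rice genome and counted them per transcript with featureCounts. The deposited values are raw counts, with 11195978 to 16410418 counts a library. The sources used here do not give the strand setting or how reads with several matches were counted. Counts were tested with edgeR 4.0.16 (quasi-likelihood test, robust, TMM factors) in R 4.3.3. The filter was 10 CPM in at least 2 of the 6 libraries. The study names the same level in 2 or more samples, without saying over which libraries its filter ran. Transcripts with an adjusted p under 0.05 and a log2 fold change of at least 1 in size were called. limma 3.58.1 (voom) and DESeq2 1.42.0 were alternatives, beside other scaling, other filters, all 18 libraries in 1 fit, counts summed per locus, a replicate block and leaving out each library. Tables and plots were made with Python 3.11.15, pandas 2.3.3 and matplotlib 3.10.9. List counts without each library, with voom and with DESeq2 were chosen after seeing the data. Tested on simulated data with 200 changed transcripts among 13770, the fit called 60.6%, 97.0% and 100% of changes of 1.5, 2 and 3 on the log2 scale. It also called 11 unchanged transcripts. At 1 CPM it called 36.4%, 71.6% and 98.5% of these changes. Each simulated transcript took the spread typical of its level, so these shares do not measure how reliable the calls on the real libraries are.

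Transcripts named were the RT-PCR genes, up to 4 called members of each list at either end of the fold changes, the 8 called transcripts at either end by fold change, by change in mean CPM and by adjusted p in each direction, members of the longest runs of neighbouring loci, the 5 low-level transcripts at either end, and the largest differences between times. Others are marked as chosen after their values were seen, and not every transcript the rule allows is named. Members, lists and rule were chosen with earlier results of these data known. Where nothing ties replicates to separate cultures, p-values measure only the spread between these libraries.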

Additional observations from a re-analysis of the deposited data

Results flagged for a closer look

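The 2,4-D effect of 11 transcripts differed between 7 and 1 dpt in edgeR's fit of all 18 libraries, given as the log2 fold change at 7 dpt minus that at 1 dpt. It was more negative at 7 dpt for LOC_Os02g17150.1 (a subtilase, difference -6.03, adjusted p = 0.0278), LOC_Os10g31730.1 (-5.00), LOC_Os07g34110.1 (an MtN21-type transporter, -2.74), LOC_Os12g26290.5 (a peroxidase, -2.68) and LOC_Os10g41060.1 (-1.85), the last 4 at an adjusted p of 0.0340. It was more positive for LOC_Os06g40870.1 (3.76), LOC_Os03g06610.1 (3.26), LOC_Os05g39840.1 (2.34), LOC_Os03g07270.1 (2.58, adjusted p = 0.0278), LOC_Os07g07070.1 (2.32, adjusted p = 0.0496) and LOC_Os01g57250.1 (2.04, adjusted p = 0.0496), the first 3 at 0.0340. In 5 of the 11 the effect was larger in size at 1 than at 7 dpt, and its sign differed between the times in each. They were LOC_Os10g41060.1 (1.73 at 1 dpt and -0.12 at 7 dpt), LOC_Os03g06610.1 (-2.15 and 1.11), LOC_Os03g07270.1 (-1.47 and 1.11), LOC_Os07g07070.1 (-1.48 and 0.84) and LOC_Os06g40870.1 (-1.99 and 1.77). In the comparison of 7 dpt alone, LOC_Os10g41060.1 was not called, and LOC_Os03g06610.1 and LOC_Os07g07070.1 were under the filter of 10 CPM. LOC_Os03g07270.1 was called there in none of the 6 fits that left out 1 library, nor with limma-voom. On omitting 2,4-D replicate 3 its adjusted p was 0.0440 by edgeR, and the log2 fold change missed the limit of 1. In the other fits the adjusted p was 0.0552 to 0.0874. LOC_Os05g39840.1 failed on omitting 2,4-D 1 (adjusted p = 0.0568 by edgeR) or mock 1 (0.0504). LOC_Os01g57250.1 stayed called in 2 of the 6 fits. The libraries of 1 dpt were sequenced in another batch by the labels, and time and batch cannot be told apart. With limma-voom none of the differences was called, and without any single library of 7 dpt other than 2,4-D replicate 3 none was either (40 without that one).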

How the results depend on the processing

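The counts of 693 higher and 835 lower transcripts became 1071 and 1340 under DESeq2. A filter of 1 CPM gave 1089 and 1320, filterByExpr 1104 and 1326, and no filter 1093 and 1295, and 1273 were lower with all 18 libraries in 1 fit. Without 1 library they ranged from 156 to 791 higher and from 207 to 1326 lower. The balance turned to 874 higher and 740 lower when scaled on library totals alone. The 825 low-level calls became 1551 with DESeq2 and ranged from 95 to 1033 without 1 library. The difference between 7 and 14 dpt gave 0 calls, 4 with DESeq2. That between 7 and 1 dpt gave 11 calls, 340 with DESeq2, 0 with limma-voom, 18 with a filter of 1 CPM and 0 to 40 without 1 library. The cause of these moves was not tested, except that other filters change how many transcripts are tested. Same-numbered mock and 2,4-D libraries deviated with correlations of -0.0657, -0.246 and -0.189, and differently numbered ones with -0.175 to 0.345. Whether the numbers pair the libraries cannot be told from 3 of each. A replicate block gave 170 higher, 187 lower, 70 low-level and 0 calls between 7 and 1 dpt. Of the 1528 calls, 1099 were kept with limma-voom, 1526 with DESeq2 and 339 with the replicate block. Under the block 59 of the 155 named transcripts lost their call. No named transcript changed sign under an alternative. With 3 libraries a group and these depths, a transcript near 1 CPM rests on few counts, and a missing call there does not show that levels were alike.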

Other observations

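Genes of DNA repair and RNA handling were mostly higher with 2,4-D, with 18 higher and 1 lower of 33 tested (median log2 fold change 1.03). Left out in turn, libraries gave 11 and 0, 12 and 0, and 13 and 1 without mock replicates 1, 2 and 3 in turn, and 2 and 0, 6 and 0, and 21 and 1 without 2,4-D replicates 1, 2 and 3. Cytoskeleton genes were called in both directions (4 higher and 5 lower of 23, median log2 fold change -1.44), with 2 and 0, 3 and 1, and 3 and 4 without mock replicates 1, 2 and 3 in turn, and 0 and 0, 3 and 0, and 4 and 14 without 2,4-D replicates 1, 2 and 3. Of 11 heat shock genes and chaperones 1 rose and 2 fell, although the median log2 fold change was -2.15. Their counts were 1 and 0, 1 and 0, and 0 and 3 without mock replicates 1, 2 and 3 in turn. Without 2,4-D replicates 1, 2 and 3 they were 0 and 0, 0 and 0, and 1 and 9. Phloem markers gave 1 higher and 1 lower of 3, with 0 and 1, 0 and 0, and 0 and 0 without mock replicates 1, 2 and 3 in turn, and 0 and 0, 0 and 0, and 1 and 1 without 2,4-D replicates 1, 2 and 3, and green tissue markers 2 and 0 of 4, with 0 and 0, 2 and 0, and 1 and 0 without mock replicates 1, 2 and 3 in turn, and 0 and 0, 0 and 0, and 3 and 0 without 2,4-D replicates 1, 2 and 3. The 3 gene lists come from tables drawn on these libraries and are no independent evidence.

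In 2076 (39.8%) of the 5217 loci with several isoforms and at least 1 count, the first isoform was at 0 counts in all 6 libraries. The 1528 called transcripts belonged to 1526 loci, and in no locus were isoforms called in opposite directions.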
